A study of Caenorhabditis elegans with 2 samples.

Results

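The regions described here are the single-gene promoter peaks in the centres of the autosomes II to V of the nematode Caenorhabditis elegans, where chromatin was recovered with a GFP-tagged DMD-6 protein. A peak of the main deposited list was taken when its summit lay in the middle of 3 equal parts of chromosome II, III, IV or V, no more than 500 bp before and 100 bp after a start site of a protein-coding gene. It was left out when a second protein-coding gene on the opposite strand had the same summit no more than 1000 bp before and 200 bp after one of its start sites, since such a peak lies between 2 divergent genes. The rule took 670 of the 7338 peaks of the list, or 9.13%. They fell in front of 598 of the 5434 protein-coding genes with a start site in these centres, so that 11% of the genes had such a peak. Chromosome II had 163 of these peaks, III had 119, IV had 154 and V had 234.

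The worms were of strain RJP5356, which carries rp168 on chromosome IV, an allele made by CRISPR insertion in which dmd-6 is fused to GFP, AID (a degron), TEV (a protease site) and 3xFLAG. The tagged protein was thus made from the gene's own locus, and all samples carried the tag. Worms were synchronised by starving them as L1 larvae after bleaching and were collected whole as L4 larvae of 48 hours. The tagged protein was precipitated from sonicated chromatin with an antibody against GFP, although 1 label field names dmd-6 as the antibody, and the DNA was sequenced (ChIP-seq). The 2 biological replicates form 1 group, with no other group among the samples. The control experiment named in the labels was not used. The comparisons are thus between the replicates and between these peaks and other places in the genome. A whole worm mixes all its tissues, so a peak in few cells and a weak peak in many cells cannot be told apart.

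DMD-6 belongs to the DM-domain proteins, a family named after Drosophila Doublesex and worm MAB-3 that binds DNA through an intertwined zinc module and is known for work in sexual differentiation. In C. elegans the autosome centres hold many broadly used genes, and the arms hold more of the large, fast-evolving families. Worm promoters lie mostly just upstream of the start site, and many genes expressed in the gut carry sites for GATA factors such as ELT-2. Among the 12 words searched for here were TGATAA and TGATAAG for GATA factors, CACGTG for E-box factors and ACATTGT and TGTTGC for DM-domain proteins.

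The sequences around the 4 strongest summits are shown first, followed by windows that carry the words discussed later and that of mab-3. Each covers the summit and 50 bp on either side of it, in assembly WBcel235 (the sequence of ce11, from the RefSeq copy), read 5′ to 3′ on the strand of the gene, and none overlaps an exon of a protein-coding gene. Capitals mark TGATAA (or TTATCA, its reverse complement), CACGTG and another word, CTGCGTC. The first, of C30G12.2, is chrII:7290058-7290158 on the plus strand, and that of rpl-35, a gene of the large ribosomal subunit, is chrIII:7854642-7854742 on the plus strand. The window of ztf-7, a zinc-finger gene, is chrV:9790001-9790101 on the minus strand, and that of alh-1, an aldehyde dehydrogenase gene, is chrIII:5078259-5078359 on the plus strand.
C30G12.2: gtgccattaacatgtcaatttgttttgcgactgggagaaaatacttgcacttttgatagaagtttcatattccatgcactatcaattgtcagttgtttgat
rpl-35: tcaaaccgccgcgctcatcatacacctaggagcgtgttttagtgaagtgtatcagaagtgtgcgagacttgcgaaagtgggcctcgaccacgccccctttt
ztf-7: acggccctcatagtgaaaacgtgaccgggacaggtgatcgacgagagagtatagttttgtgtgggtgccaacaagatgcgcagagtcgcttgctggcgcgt
alh-1: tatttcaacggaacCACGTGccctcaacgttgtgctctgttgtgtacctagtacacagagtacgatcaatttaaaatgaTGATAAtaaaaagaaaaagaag
Of these 4 windows, that of alh-1 alone holds any of the 3 words, and it holds CACGTG and TGATAA together.

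Next come windows with GATA words at genes of gut function, lipid metabolism and transcription, shown because that word was the commonest of those searched. fat-4, a fatty acid desaturase gene, has chrIV:9801603-9801703 on the plus strand, and vit-6, a yolk protein gene, has chrIV:8260958-8261058 on the plus strand. lys-8, a lysozyme gene, has chrII:5585907-5586007 on the plus strand, and zip-10, a bZIP transcription factor gene, has chrV:11650895-11650995 on the minus strand.
fat-4: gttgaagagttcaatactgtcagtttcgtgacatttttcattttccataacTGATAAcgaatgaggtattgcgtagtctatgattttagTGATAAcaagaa
vit-6: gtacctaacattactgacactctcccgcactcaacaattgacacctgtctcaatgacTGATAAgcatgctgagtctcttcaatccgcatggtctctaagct
lys-8: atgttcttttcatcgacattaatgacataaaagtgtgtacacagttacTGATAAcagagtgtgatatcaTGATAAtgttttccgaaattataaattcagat
zip-10: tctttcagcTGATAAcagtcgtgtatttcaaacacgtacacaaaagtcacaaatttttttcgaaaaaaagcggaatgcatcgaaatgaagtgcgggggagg
The fat-4 and lys-8 windows hold the word at 2 places each.

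The last windows show CACGTG at nhr-135, a nuclear hormone receptor gene (chrV:7093940-7094040, minus strand), and CTGCGTC at sec-61.G, a translocon subunit gene (chrV:10897319-10897419, minus strand), and at ugt-20, a glucuronosyltransferase gene (chrIV:6083804-6083904, minus strand). The window of mab-3, the DM-domain gene that guides male tail and gut differentiation, is chrII:9731895-9731995 on the plus strand and has none of the 3 words.
nhr-135: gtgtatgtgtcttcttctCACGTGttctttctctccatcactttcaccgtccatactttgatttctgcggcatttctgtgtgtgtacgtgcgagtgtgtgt
sec-61.G: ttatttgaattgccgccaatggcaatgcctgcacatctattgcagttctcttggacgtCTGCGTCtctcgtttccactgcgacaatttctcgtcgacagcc
ugt-20: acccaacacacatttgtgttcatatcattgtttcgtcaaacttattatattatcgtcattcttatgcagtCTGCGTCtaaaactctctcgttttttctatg
mab-3: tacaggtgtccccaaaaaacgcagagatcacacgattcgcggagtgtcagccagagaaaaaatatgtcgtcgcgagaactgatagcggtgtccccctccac

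The thresholded list of replicate 1 held 6533 peaks and that of replicate 2 held 4653. A peak counted as found in a replicate when it overlapped a peak of that replicate's list by at least 1 bp. Of the 670 peaks, 393 were found in both replicates (58.7%, exact 95% interval 54.8 to 62.4%), 196 in replicate 1 only, 20 in replicate 2 only and 61 in neither. Nearly all overlapped an entry of the longer ranked lists, namely 99.1% in replicate 1 and 96.4% in replicate 2, which hold 25335 and 29346 entries and so include weak calls. The conservative list of the series contained 569 of the peaks (84.9%). Chromosome V had the highest share found in both replicates, 65.0%, ahead of II with 59.5%, IV with 55.8% and III with 48.7%. Their median signals in the main list ran in the same order, at 155, 145, 133 and 124.

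How the deposited signal of a peak was computed is not stated, so it was used for order within a list. Values of different lists are shown side by side, but their sizes were not compared between lists. In the main list the signal of the 670 peaks had a median of 142, with quartiles of 94.2 and 238 and a range from 3.65 to 1042. The list as a whole placed 10 of them among its 100 strongest peaks and 85 among its 1000 strongest, and 337 were above its median signal. Presence in both replicates followed the signal. With the peaks split by signal into 4 groups of like size, it held for 166 of 167 in the strongest group, 144 of 168 and 64 of 167 in the middle groups and 19 of 168 in the weakest. Over the 393 peaks found in both, the replicate signals had a Spearman's rho of 0.825, a description across peaks of the same 2 libraries. Of the 50 strongest in replicate 1, 38 were among the 50 strongest in replicate 2. The median distance between the summits of the main list and of a replicate was 8 bp for replicate 1 and 11 bp for replicate 2.

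**Figure D1:**
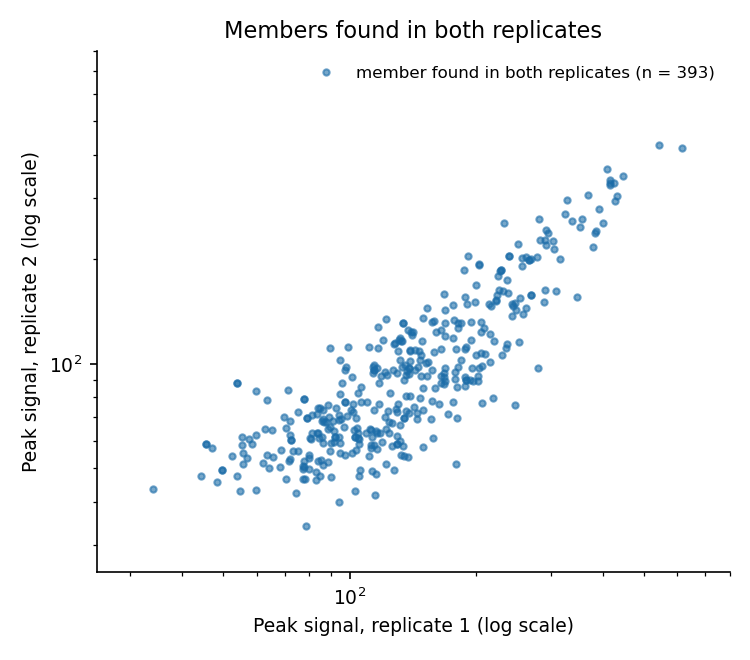
Deposited peak signal in replicate 1 (x axis) and replicate 2 (y axis), both on log scales, for the 393 single-gene promoter peaks found in both replicates; each point is a peak. The points form 1 band, with a Spearman's rho of 0.825.

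Interval width split the peaks sharply. A width of 344 bp was the commonest in the whole list, and 389 of the 670 peaks (58.1%) had it, 388 of them with the summit at the midpoint. These peaks had a median signal of 100.6, and 31.4% of them were found in both replicates. Peaks of other widths had a median signal of 258, and 96.4% of them were found in both. Across both widths, 38 of the 670 peaks overlapped a stronger entry of the list and had a median signal of 17.1. For those the replicate values are those of the overlapping peak, which may be the stronger neighbour. Of 27 peaks with a signal under 30, 25 were of this kind.

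The same promoter rule gave 839 peaks in the arms of II to V and 524 on the whole of X, and the centres held 194 divergent promoter peaks. The centre peaks did not differ detectably from these in presence in both replicates, at 58.7% against 58.5% in the arms (log2 odds ratio 0.01 ± 0.15 SE, 95% interval -0.29 to 0.31, two-sided Fisher's exact test, adjusted p = 1). Against divergent peaks, with 63.9%, the log2 odds ratio was -0.32 ± 0.24 (interval -0.79 to 0.16, Fisher's exact test, adjusted p = 0.547). Against X, with 60.3%, it was -0.10 ± 0.17 (interval -0.43 to 0.24, Fisher's exact test, adjusted p = 0.952). These p-values were adjusted by the Benjamini-Hochberg method over 16 tests, and they cover the counting of peaks and genes, not differences between samples. The median signals were 142 in the centres, 145 in the arms and 143 on X, and higher for divergent peaks, at 167. Differences in signal were not tested.

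Genes of the centres had a single-gene promoter peak more often than genes of the arms. The share was 598 of 5434 genes (11.0%) in the centres and 781 of 8930 (8.75%) in the arms, a log2 odds ratio of 0.37 ± 0.08 SE (interval 0.21 to 0.53, Fisher's exact test, p = 1.02e-05, adjusted p = 1.63e-04). Gene families differ between these places. Chemoreceptor genes made up 302 genes (5.56%) in the centres and 930 (10.4%) in the arms, and F-box genes 7 (0.129%) in the centres and 276 (3.09%) in the arms. Without both families the shares were 11.6% in the centres and 9.85% in the arms, with a log2 odds ratio of 0.27 ± 0.08 (Fisher's exact test, adjusted p = 0.0224). With the promoter window narrowed to 300 bp upstream and 50 bp downstream the log2 odds ratio was 0.27 and the adjusted p of Fisher's exact test 0.0698, so the difference no longer passed the threshold of 0.05. By chromosome, 11.8% of centre genes on II had such a peak, 9.96% on III, 10.2% on IV and 11.6% on V.

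The summits lay upstream of the start site at 612 of the 670 peaks (91.3%), where the rule itself places 83.2% of its window, with a median of 159 bp upstream and quartiles of 284 and 73.3 bp upstream. The fullest 100-bp bin was that over 100 bp and up to 200 bp upstream, with 180 peaks, followed by 159 peaks within the last 100 bp. Bins farther out held 116, 95 and 62 peaks. The 58 peaks at or downstream of the start site had the lowest median signal of the 6 bins in the main list, 95.4, and in replicate 1, 84.2. In replicate 2 the order was another, with a median of 91.4 in this bin and medians from 74.4 to 93.0 in the others. The replicate medians cover only the peaks found in that replicate, so the sets of peaks differ between the lists. Of the 58 peaks, 27 (46.6%) were found in both replicates. In the other bins this share lay between 56.1% and 64.7%. At the edges of the rule, the outermost 100 bp of the upstream window held 62 peaks with a median signal of 146, and 36 peaks with a median of 161 lay in the 100 bp beyond it. Downstream, 58 peaks with a median of 95.4 lay inside, and 13 with a median of 113 lay in the 100 bp beyond.

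**Figure D2:**
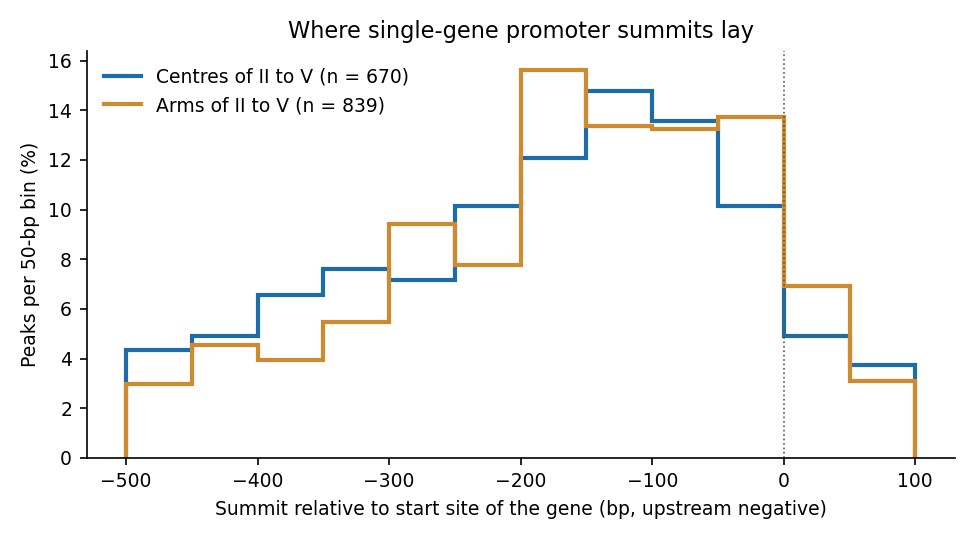
Share of peaks (y axis, percent per 50-bp bin) by the distance of the summit from the start site (x axis, bp, upstream negative), for 670 single-gene promoter peaks in the centres of II to V and 839 in their arms. The fullest bin starts 150 bp upstream in the centres (14.8%) and 200 bp upstream in the arms (15.6%). Both distributions drop beyond the start site, with 612 of the 670 centre summits upstream.

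Where the summit fell was also annotated. It lay between protein-coding genes at 444 peaks (66.3%), in an intron at 138, in a 5′ UTR at 53, in a coding exon at 20 and in an exon of another kind at 15. Of the intron summits, 119 were inside a gene whose start site met the rule. At alh-1, fat-4 and saeg-1, for example, the summit lay in front of an internal start site. Inside coding genes other than those whose start site met the rule lay 37 of the 670 summits (5.52%), 19 of them in an intron. A summit within 200 bp of a small RNA gene was seen at 18 peaks, 9 of them at a tRNA gene and 7 at a snoRNA gene. At 67 peaks a gene annotated only as ncRNA was as near. Most genes had a single peak, 528 of 598, whereas 61 had 2, 8 had 3 and gck-1, a germinal centre kinase gene, had 4. At 8 peaks more than 1 gene admitted the summit. Such a peak was named after the gene with the nearest start site. Counts of genes with a peak took in every admitting gene, so some of these genes share a peak.

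The genes behind these promoters were longer than other coding genes of the centres, with a median length of 2377 bp against 1815 bp over the other 4836 genes. The median gap upstream to the next gene was 1418 bp against 811 bp. More of them had several start sites, 49.5% against 26.3%. These properties bear on the rule itself, because each start site adds a window and a wide gap leaves fewer divergent neighbours, so they are given without a test. Among genes with 1 start site and no divergent neighbour the share with a peak was 8.23% where the upstream gap was under 500 bp, 11.0% from 500 bp to under 1000 bp, 14.6% from 1000 bp to under 2000 bp and 10.1% at 2000 bp or more.

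The strongest of the 670 peaks, at rank 23 in the main list, stood in front of C30G12.2 on II (7289930 to 7290355). Its signals were 1042 (main list), 616 (replicate 1) and 420 (replicate 2). Values are given in this order for the genes that follow. rpl-35 on III (7854557 to 7854821) had 967, 542 and 428. ztf-7 on V (9789901 to 9790191) had 788, 445 and 348, and alh-1 on III (5078142 to 5078476) had 764, 409 and 366. These were high in both replicates, at ranks 18, 31, 68 and 95 in the list of replicate 1 and 26, 25, 68 and 52 in that of replicate 2.

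The next peaks in order belonged to tos-1 (V, signal 760), ZK1290.5 (II, 758), sec-61.G (V, 751), F21C10.10 (V, 737), his-37 (V, 732) and B0507.3 (V, 715). his-37 encodes histone H4, and its summit lay within 1000 bp of 3 other coding genes, his-41, C50F4.6 and nstp-10. Then came fat-4 (IV, 685), F56H9.2 (V, 670), mtcu-2 (II, 654), lap-2 (V, 629), which encodes a leucine aminopeptidase, and ugt-20 (IV, 623). The last of the 20 were vps-60 (V, 619), an ESCRT-related gene, ZK1290.14 (II, 615), saeg-1 (V, 609), srv-1 (III, 605), a chemoreceptor gene, and lgg-2 (IV, 591), which encodes an LC3-like autophagy protein. All 20 were found in both replicates by the rule that named them. The summit of srv-1 lay 46 bp downstream of the start site in the 5′ UTR, and that of mtcu-2 lay inside an intron of let-268. Of the 20, 4 had TGATAA within the window, 4 had CACGTG, 3 had CTGCGTC and 10 had none of them.

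**Figure D3:**
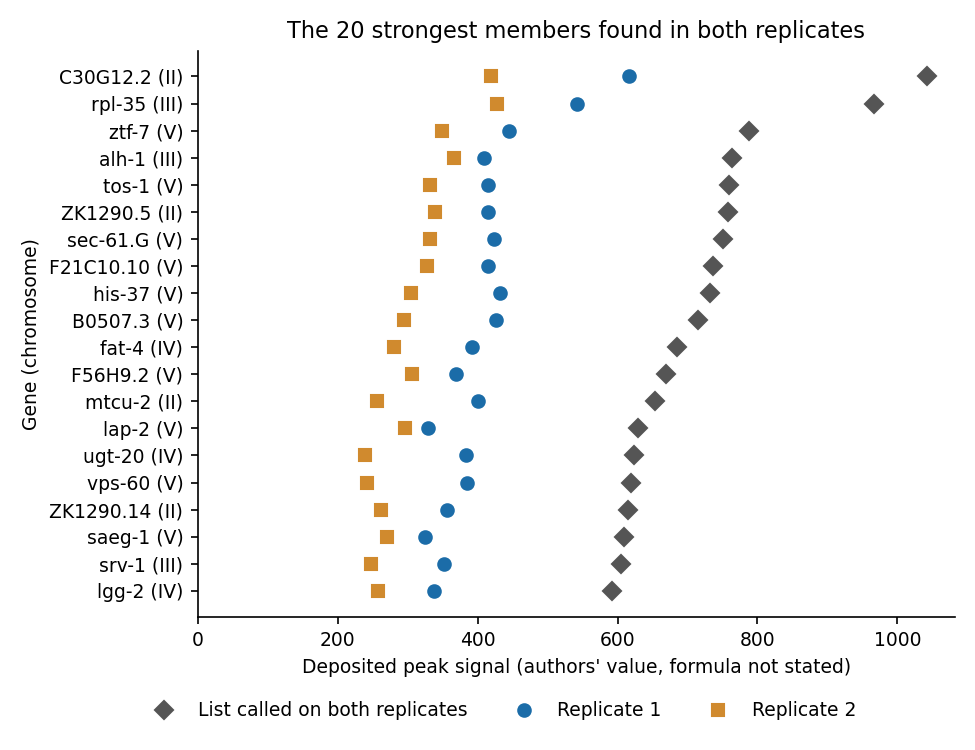
Deposited peak signal (x axis, the authors' value, formula not stated) of the 20 strongest single-gene promoter peaks found in both replicates, by gene and chromosome (y axis), in the list called on both replicates, replicate 1 and replicate 2. C30G12.2, at 1042, and rpl-35, at 967, stand apart from the other 18, whose main-list signals run from 591 to 788.

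For gene lists, the genes with such a peak were counted and set beside the share over all coding genes of the centres. Over all coding genes of the centres, 11% had a single-gene peak in the main list, 10.6% in the list of replicate 1 and 7.38% in that of replicate 2. The lists carry no test, and 17 of 35 had a share above that of all genes. Some genes stand in more than 1 list. Over the 598 genes with a peak the median signal of the strongest peak was 153, and the strongest peak of 358 (59.9%) was found in both replicates.

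The intestine list had the highest share among lists with 10 or more genes, with 10 of 18 genes (10 in replicate 1, 7 in replicate 2). Its genes with a peak had a median strongest signal of 196, and 8 of the 10 were found in both replicates. vit-6, a yolk protein gene, had signals of 480 (main list), 252 (replicate 1) and 222 (replicate 2), 149 bp upstream of its start site. lys-8, a lysozyme gene, had 441, 289 and 150. cpr-1, a cysteine protease gene, had 406, 232 and 162. Further down came the sodium-proton exchanger gene nhx-2 (224), the aspartic protease gene asp-2 (203), the intermediate filament gene ifb-2 (189), lys-1 (153), lys-4 (117), the acid phosphatase gene pho-1 (116) and asp-5 (95.1). The last 2 were found in replicate 1 only. TGATAA lay in the strongest window of 9 of the 10, all but lys-4, against 35.5% over all 598 genes.

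Genes of lipid metabolism had a peak at 18 of 44 (17 in replicate 1, 11 in replicate 2), with a median signal of 126. fat-4 was the strongest, with signals of 685, 391 and 280. cgt-3, which encodes a ceramide glucosyltransferase, had 371, 217 and 146, with a snoRNA gene within 200 bp of the summit. The acyl-CoA synthetase gene acs-7 (337), the elongase gene elo-1 (282), the fatty acid binding protein gene lbp-7 (269), the lysosomal lipase genes lipl-2 (254) and lipl-1 (195) and the desaturase gene fat-3 (175) followed. The triglyceride lipase gene atgl-1, at 105, was found in replicate 1 only. TGATAA lay in the strongest window of 10 of the 18 genes. Among lists discussed below, the word lay there at 3 of 3 C-type lectin genes and 3 of 5 bZIP genes. It did so at 7 of 21 detoxification genes and 5 of 19 nuclear hormone receptor genes. Vesicle traffic genes had it at 1 of 10, cytosolic ribosomal protein genes at 0 of 7 and chromatin regulators at 0 of 4.

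Detoxification enzymes had a peak at 21 of 68 genes (20 in replicate 1, 13 in replicate 2), led by ugt-20, with signals of 623, 383 and 239. cyp-13A8, a cytochrome P450 gene, had 368, 253 and 116. Its relatives cyp-13A1, cyp-13A2, cyp-13A4 and cyp-13A5 also had peaks. They are related genes in 1 cluster on II, and whether reads can be told apart between their promoters was not tested. Nuclear hormone receptor genes had a peak at 19 of 63 (17 in replicate 1, 15 in replicate 2), with a median signal of 211. nhr-135 was the strongest, with 471, 309 and 162, and nhr-8, which acts in xenobiotic and sterol responses, had 404, 237 and 175 with its summit 68 bp downstream of the start site. Of the 8 bZIP transcription factor genes 5 had a peak (5 in replicate 1, 4 in replicate 2), and 2 when each gene was read from its most upstream start site alone. They were zip-10 (387), jun-1 (229), zip-5 (225), crh-2 (200) and zip-6 (81.5), and zip-6 was found in replicate 1 only.

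Among housekeeping lists the shares differed widely. Cytosolic ribosomal protein genes had a single-gene peak at 7 of 26 (8 in replicate 1, 6 in replicate 2, and 3 with the narrower promoter window), led by rpl-35 and by rps-4 (285), and at 20 of 26 (76.9%) when divergent promoters were counted too. The same wider count over all coding genes was 892, or 16.4%. The vesicle traffic list had 10 of 36 (8 in replicate 1, 7 in replicate 2), led by sec-61.G, which is a translocon subunit gene, and vps-60. Ubiquitin genes had 3 of 13, but 4 in replicate 1 and 1 in replicate 2. Chromatin regulators had 4 of 25, with 3 in each replicate, and translation factors 3 of 18, with 2 in each replicate, although 1 of those 3, inft-2, is a formin gene that its name alone placed in the list. The chromatin regulators were led by lin-9, a DREAM complex gene (539), and set-4, a histone methyltransferase gene (424). None of the 25 mitochondrial ribosomal protein genes, 12 proteasome genes and 11 respiratory chain genes had a single-gene peak, in the main list or in either replicate. When divergent promoters were counted too, 3 mitochondrial ribosomal protein genes (12%), 3 proteasome genes (25%) and 2 respiratory chain genes (18.2%) had a peak. Chaperone genes had a single-gene peak at 2 of 28, led by unc-23, a BAG-type co-chaperone gene (451), and 9 of 28 (32.1%) had one by the wider count. Histone genes had 1 of 33, his-37, and 7 of 33 (21.2%) by the wider count.

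Chemoreceptor, homeobox and germline genes had few peaks or none by either count. Chemoreceptor genes had 2 of 302, srv-1 and srx-125, with 2 in each replicate and 3 (0.993%) when divergent promoters were counted too. Homeobox genes had 0 of 27 and germline genes 0 of 31 in the main list, with 1 of each in the list of replicate 1 and 1 of each by the wider count. Neuropeptide and insulin genes had 2 of 41, nlp-24 and flp-23, with 2 in replicate 1 and 1 in replicate 2.

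Other lists lay nearer the share over all genes or rest on few genes. Cuticle collagens had 5 of 61 (8.20%), with 5 in replicate 1 and 3 in replicate 2. Of these, col-159 and col-160 shared a peak. C-type lectins had 3 of 35 (8.57%), with 3 in replicate 1 and 2 in replicate 2. The pan-neuronal list had 3 of 10 in the main list but 1 in each replicate, and of its 3 genes egl-21, a carboxypeptidase gene, was the one found in both. Body wall muscle had 2 of 12, the actin genes act-2 (160) and act-1 (120), with 1 in each replicate. act-1 was found in neither replicate. Whether reads can be told apart between the promoters of these closely related genes was not tested.

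Of the 4 DM-domain genes with a start site in the centres, mab-3, mab-23, dmd-5 and dmd-10, mab-3 had a peak and the other 3 had none. The mab-3 peak (II, 9731773 to 9732116) had signals of 167 (main list), 91.3 (replicate 1) and 68.6 (replicate 2), with its summit 192 bp upstream of the start site. Its rank was 2981 in the main list, where its signal was above the median of 142 over all 670 peaks. In both replicates it was below the median of the peaks found there, 101.5 in replicate 1 and 82.1 in replicate 2. In the list of sex determination and dosage compensation 2 of 9 genes had a peak, mab-3 and sel-10, an F-box gene (signals 208, 123 and 92.9). dmd-6 itself lies in an arm of IV and was not among the genes counted.

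**Figure D4:**
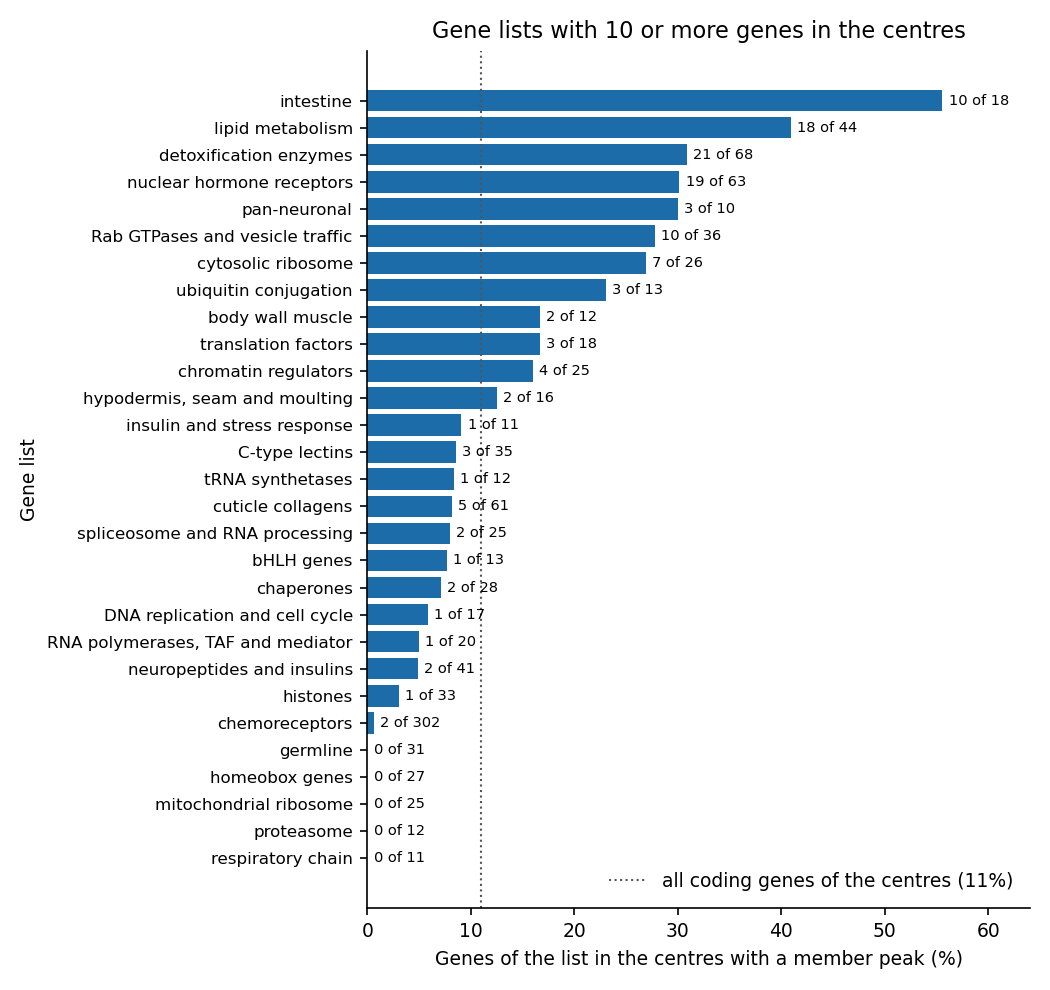
Share of genes with a single-gene promoter peak in the main list (x axis, percent) for gene lists with 10 or more genes in the centres of II to V (y axis), with the counts beside each bar; the dotted line is the share over all coding genes, 11%. The intestine list, at 10 of 18, is at the top, and 5 lists have no gene with a peak.

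The GATA word TGATAA lay in the summit window (50 bp on either side) of 231 of the 670 peaks (34.5%, interval 30.9 to 38.2%). Windows of the same length 350 bp upstream and 350 bp downstream of the summits had it in 9.55% each, and 4292 promoters of the centres without a peak, read 150 bp upstream of the start site, in 11.3%. Words were counted on both strands. The longer TGATAAG, which contains it, was in 18.1% of summit windows, against 1.79% upstream, 1.34% downstream and 2.54% of promoters without a peak. Chromosome III had TGATAA least often, in 21.01% of its peaks, against 35.6% on II, 39.6% on IV and 37.2% on V. At 70 peaks the window held it at 2 or more places.

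Other words were rarer, and some of them were also commoner in summit windows than in the flanks. CACGTG was in 54 windows (8.06%, interval 6.11 to 10.4%), against 1.79% upstream, 0.746% downstream and 1.30% of promoters without a peak. GAGAGAG was in 6.12%, against 1.34% and 0.597% in the flanks and 2.00% of promoters without a peak. TGACGT, the word of bZIP factors such as CREB, was in 7.16%, against 2.84%, 3.73% and 3.54%. TATAAA went the other way, in 8.36% of summit windows against 13.3% upstream, 11.5% downstream and 14.7% of promoters without a peak, and so did TTTTCAG, the trans-splice acceptor word, in 5.07% against 9.70%, 11.0% and 7.11%. CTGCGTC was picked after the windows had been seen. It was in 47 windows (7.01%), against 1.04% upstream, 0.896% downstream and 1.51% of promoters without a peak.

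The words of the DM-domain family did not stand out at the summits. ACATTGT was in 19 windows (2.84%, interval 1.72 to 4.39%), against 2.84% upstream, 2.69% downstream and 1.77% of promoters without a peak. TGTTGC was in 33 windows (4.93%, interval 3.41 to 6.85%), against 3.73%, 5.07% and 4.19%. The forkhead word GTAAACA was in 11 windows (1.64%), against 1.19%, 0.597% and 1.98%, and the tRNA B-box word GGTTCGA in 10 windows (1.49%). These are matches of letters only and say nothing on whether a factor was bound.

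**Figure D5:**
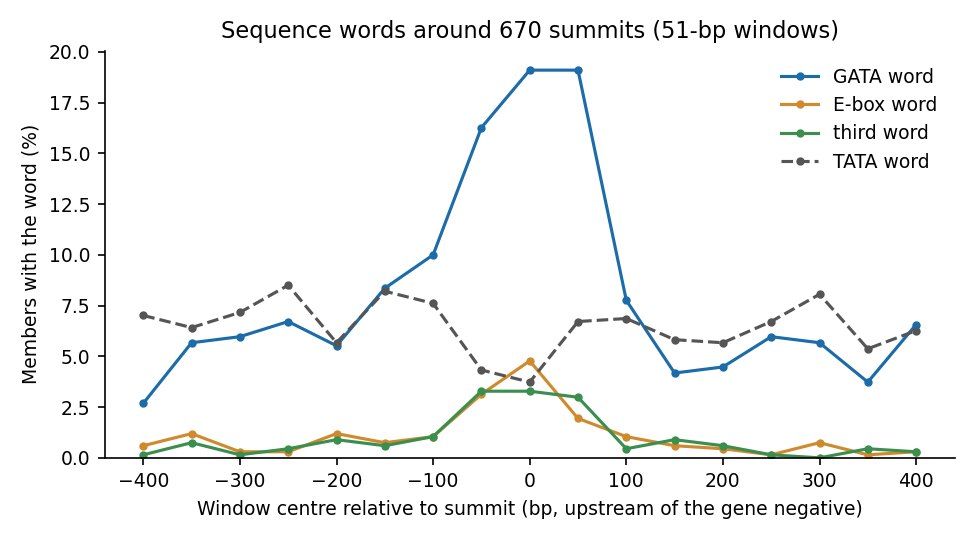
Share of the 670 single-gene promoter peaks (y axis, percent) with a word in 51-bp windows centred at the given distance from the summit (x axis, bp, upstream of the gene negative). The GATA word is TGATAA, the E-box word CACGTG, the word marked as the third CTGCGTC and the TATA word TATAAA. The GATA word is at 19.1% both at the summit and 50 bp downstream of it, and at 16.3% 50 bp upstream. The TATA word is lowest at the summit, at 3.73%.

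A search that chose 8 words of 6 letters on chromosomes II and III by their excess at the summit was read on IV and V, which had not been used for the choice. TGATAA led, in 29.4% of the 282 summit windows on II and III against 10.6% of flank windows, and in 38.1% of the 388 windows on IV and V against 8.76% of flanks. The other GATA-like words were CTTATC, in 27.6% of windows on IV and V against 3.87% of flanks, and CTGATA, in 20.6% against 3.87%. The remaining 5, among them AGAGAG and the words that overlap it, were runs of A and G, with a C at the end of 1, in 12.6 to 23.7% of windows on IV and V against 2.71 to 9.41% of flanks.

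Peaks with TGATAA lay closer to the start site, at a median of 129 bp upstream against 181 bp for peaks without it. Their median main-list signal was 159 against 133, and 61.5% against 57.2% were found in both replicates. In replicate 1 the medians were 110 against 94.1, but in replicate 2 they were 77.6 against 85.7. Each covers only the peaks found in that replicate, 87.9% of the 670 in replicate 1 and 61.6% in replicate 2. The order thus did not hold in both replicate lists, but the lists cover different sets of peaks. Whether it differed for the same peaks was not tested. Peaks with CACGTG were found in both replicates in 74.1%, against 57.3% of those without it, and had a median signal of 186 against 140. Of the 47 windows with CTGCGTC, 4 also held TGATAA (8.51%), against 36.4% of the other windows. At least 1 of these 3 words was present in 302 windows (45.1%). TGATAA was in 29.6% of peaks of the common width of 344 bp and in 41.3% of those of other widths.

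The base composition changed at the summit as well. The median GC content of summit windows was 39.6%, against 32.7% in windows 350 bp upstream, 34.7% in those 350 bp downstream and 32.7% in promoters without a peak. Windows with TGATAA had a median of 35.6% against 41.6% without it. Shares of AT-rich words such as TATAAA and GC-rich words such as CCGCCC move with this composition, and its part in their shares was not tested.

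In the main list none of the 12 words fixed for comparison differed between centre and arm peaks past an adjusted p of 0.05 in two-sided Fisher's exact tests. TGATAA was in 34.5% of centre windows and 35.5% of arm windows (log2 odds ratio -0.07 ± 0.16 SE, interval -0.37 to 0.24, Fisher's exact test, adjusted p = 0.952). CACGTG was in 8.06% and 6.08% (0.44 ± 0.29, interval -0.13 to 1.01, Fisher's exact test, adjusted p = 0.547). At an unadjusted p under 0.05, 1 word differed: GAGAGAG was in 6.12% of centre windows and 9.30% of arm windows (-0.64 ± 0.29, Fisher's exact test, p = 0.0267, adjusted p = 0.214). This word passed the threshold among peaks above the list's median signal (-1.20, Fisher's exact test, adjusted p = 0.0348) and without replicate 1 (-0.99, adjusted p = 0.0387 by the same Fisher's exact test), and over the other alternatives its adjusted p ran from 0.151 to 0.539. CTGCGTC, which was not among the 12, was in 7.01% of centre windows and 10.4% of arm windows and has no test.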

How the data were processed

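Whole L4 worms of 1 strain were assayed by ChIP-seq in 2 biological replicates, numbered by the labels. The deposited peak lists are on ce11, per the labels, with aligner and caller not given in the sources used here. In each deposited list the score is the authors' peak score (from 830 in the main list, 832 in the peaks described), the signal is the authors' value per peak, whose formula is not stated, and the summit is the authors' offset in bp from the peak start. Thresholded lists hold peaks selected by the irreproducible discovery rate, per the deposited descriptions. The depth in reads is unknown. The main list was the larger of the pair called on both replicates.

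Gene models came from Ensembl release 115. Members were the peaks chosen as described, each named after the admitting gene with the nearest start site. Counts of genes took in every admitting gene. Words were searched on both strands, 50 bp to each side of the summit. Shares have exact (Clopper-Pearson) 95% intervals. The 16 two-sided Fisher's exact tests were adjusted together (Benjamini-Hochberg), with 0.5 added to each cell for the log2 odds ratios. Intervals and p-values cover counting only; with 2 replicates of 1 group no test across samples was made. The functions were tested on simulated data. Python 3.11.15, NumPy 2.4.6, SciPy 1.17.1 and matplotlib 3.10.9 were used.

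Named genes were the 20 strongest members found in both replicates, the 2 genes with the strongest member of each list, and DM-domain genes with a member; other genes of the intestine, lipid, bZIP and detoxification lists, neighbours and gck-1 were named after their values were seen. The members, gene lists and words were chosen with earlier results of these data known, and some lists were built from name patterns. Alternatives were other promoter windows, start sites, definitions of the centre, lists, overlaps and window lengths, and leaving out each replicate. Chosen after seeing the data were keeping the strongest of overlapping intervals and leaving out chemoreceptor and F-box genes.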

Additional observations from a re-analysis of the deposited data

How the results depend on the processing

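With only the peaks above the list's median signal there were 337 members at 5.96% of genes, 92.6% of them in both replicates, and 1 word (GAGAGAG) differed between centres and arms. Leaving out a replicate gave 425 to 615 members at 7.38 to 10.6% of genes, median summits of -172 to -161 bp, 0 to 1 differing words (GAGAGAG, without replicate 1), 15 to 16 lists above the overall share and log2 odds ratios of centre over arm genes from 0.34 to 0.42. The narrower promoter window gave 8.47% of genes, a median of -121 bp and a log2 odds ratio of 0.27 for centre over arm genes (Fisher's exact test, adjusted p = 0.0698). Genes without a divergent neighbour had a share of 13.9%. The share in both replicates was 66.0% in the conservative list and 53.1% when 0.5 of the interval had to overlap; without a replicate it has no value. The causes of these moves were not tested. No paired analysis was possible because there is 1 group.

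Signs turned only for log2 odds ratios that were not past the threshold in the main setting, and none passed it after turning. Presence in both replicates turned to 0.00417 against X and 0.14 against divergent peaks above the median signal, and against the arms to -0.0934 with the most upstream start site, -0.0883 with the narrower window and -0.012 with the strongest of overlapping intervals. Between centre and arm windows, TGATAA turned to 0.0391 (above the median signal) and 0.0526 (narrower window), and was -0.0898 to 0.0294 with a replicate left out. TGACGT turned to -0.50 above the median signal and to -0.53 to -0.43 with a replicate left out. GGTTCGA turned to -0.51 above the median signal, was -0.25 to 0.101 with a replicate left out, and turned to -0.33 with a wider centre, the middle 50 percent of each chromosome. TTTTCAG turned to -0.13 (conservative list), -0.27 (above the median signal), -0.50 (51-bp windows) and -0.0069 (strongest of overlapping intervals), and was -0.79 to 0.0762 with a replicate left out.

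Limits: the lists give no read depth, so weak and absent peaks cannot be told apart by counts, and of the 168 weakest peaks 19 were found in both replicates. The control experiment named in the labels was not used here. A peak was tied to a gene by distance alone.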
